A study of Mus musculus with 6 samples.

Results

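The genes described here are 38 enzymes of lipid synthesis, 19 that build sterols and 19 that build, activate, elongate or desaturate fatty acids. They were chosen by symbol, from a list of pathway enzymes, among 22105 named genes of a read-count table, and all 38 were in it. The choice was made with earlier results of these data known. All 38 also passed the filter on low counts, which left 12288 genes for testing. The question was how the transcripts of the sterol branch and of the fatty acid branch stood, enzyme by enzyme, in tumor cells given an inhibitor of the histone demethylase KDM3B.

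The cells were 4T1, a mouse mammary carcinoma line used as a model of triple-negative breast cancer, grown in DMEM with 10% fetal bovine serum and antibiotics. One group of 3 libraries received the vehicle DMSO and the other group of 3 received P3FI-90, a small-molecule KDM3B inhibitor, at 10 µM, both for 24 h. The mRNA-seq libraries held between 31327094 and 37395732 counts. The comparison is therefore of 1 line, 1 dose and 1 time in medium that itself supplies lipids with the serum, and the labels do not say whether the libraries came from separate cultures, so p-values measure only the spread between these libraries.

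Sterols and fatty acids both start from acetyl-CoA. In the sterol branch, acetyl-CoA units are joined to mevalonate, then to isoprenoids and to squalene, which is closed to lanosterol and trimmed to cholesterol. In the fatty acid branch, acetyl-CoA is carboxylated to malonyl-CoA and polymerized to palmitate, which elongases and desaturases then modify and acyl-CoA synthetases activate. Many of these genes are textbook targets of the SREBP transcription factors, SREBP2 mainly for sterol enzymes and SREBP1 mainly for fatty acid enzymes, and tumor cells often run both branches at a high rate.

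Relative to library size, transcripts of most of these enzymes had lower counts in P3FI-90-treated cells. By edgeR's quasi-likelihood test with Benjamini-Hochberg adjustment over all genes tested, 28 of the 38 enzymes fell (73.7%), 4 rose and 6 passed in neither direction. Among all genes tested, 39.4% fell and 39.9% rose, and 79.3% changed in either direction, so most genes of these cells were called one way or the other. Scaled by total counts in place of edgeR's TMM factors, 29.6% of all genes tested fell and 50.3% rose, and 26 of the 38 enzymes fell and 7 rose. A fall of more than 1 on the log2 scale was recorded for 16 of the 38 (42.1%) against 10.6% of all genes tested. The 3 treated libraries did not overlap the 3 DMSO libraries for 33 of the 38, 28 below and 5 above, where 81.2% of all genes tested did not overlap. The median log2 fold change was -0.80 over the 38 enzymes and 0.013 over all genes tested. Normalized counts, used from here on, are read counts scaled by edgeR's TMM factors to 1 common library size.

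**Figure D1:**
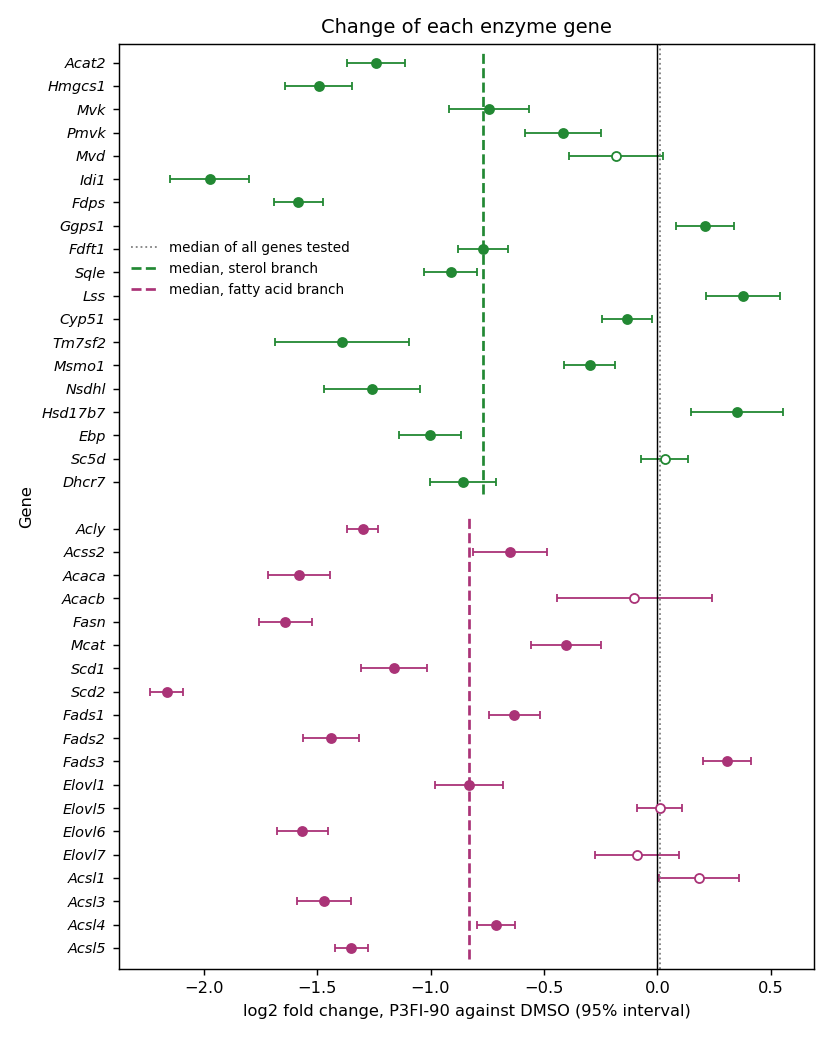
Fitted log2 fold changes (P3FI-90 minus DMSO) of the 38 enzymes with 95% intervals, with filled points for an adjusted p under 0.05, open points for the rest, dashed lines at the branch medians and a dotted line at the median of all genes tested. Most intervals lie wholly below 0, from Scd2 at -2.16 upward, and the 4 that rose reach at most 0.38.

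The labelled cell type was checked on marker genes. All 6 mammary epithelial markers (Epcam, Cdh1, Krt7, Krt8, Krt18 and Krt19) were present, and all 6 fell, from 149858 to 158390 summed normalized counts in the DMSO libraries to between 62410.0 and 65543 in the treated ones, and their part in the results was not tested. In a bulk sample, fewer cells of a type and less RNA per cell cannot be told apart. Of the receptor genes that the triple-negative label concerns, Pgr was at 0 in every library, Esr1 had 271 to 313 normalized counts over both groups, and Erbb2 had 2611 to 2854 with DMSO and 1133 to 1206 with P3FI-90. The 5 adipocyte markers summed to at most 11.8 normalized counts in any library and 2 were at 0 in all. Leukocyte markers summed to 532 to 596 and 323 to 368, mostly Cd14, which fell from 508 to 215, while Csf1r rose from 41.5 to 121. The sums were, for fibroblast markers, 1411 to 1441 and 1001 to 1096 and, for endothelial markers, at most 13.3 and 31.3. The fibroblast sum was mostly Pdgfra, at 1355 and 958, while Col1a1 stood at 70.1 and 57.5 and the others were lower still. Kdm3b itself had 2851 and 3109 normalized counts, which is no check of an inhibitor that acts on the protein.

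Both branches held 14 enzymes that fell, 73.7% of each, against 39.4% of all genes tested. In the sterol branch 3 rose and 2 passed in neither direction, and the median log2 fold change was -0.77. In the fatty acid branch 1 rose and 4 passed in neither direction, and the median was -0.83. Library by library, the sterol median stood at -0.83, -0.76 and -0.75 relative to the DMSO mean, and the fatty acid median at -0.82, -0.73 and -0.97. The order of the branch medians turned over when DMSO replicate 3 or P3FI-90 replicate 3 was left out, where the sterol median minus the fatty acid median went from 0.064 to -0.0061 and -0.031, so the medians did not rank the branches.

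**Figure D2:**
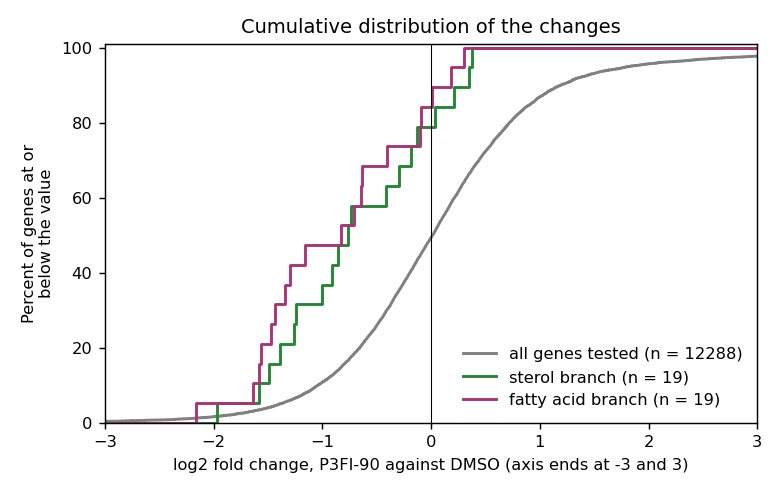
Cumulative share of genes (percent, vertical axis) by log2 fold change (horizontal axis) for the sterol branch, the fatty acid branch and all 12288 genes tested. Both branch curves run left of the curve of all genes, with medians of -0.77 and -0.83 against 0.013.

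Summed transcripts gave a wider gap between the branches than the medians. The sterol enzymes together had 36124, 36877 and 36449 normalized counts in the DMSO libraries and 21380.0, 21839.5 and 21528 in the treated libraries, 59.2% of the DMSO mean. The fatty acid enzymes together had 134429, 133356 and 136305 and then 50831, 52040.3 and 52148, 38.4% of the DMSO mean. In both branches every treated library lay below every DMSO library. A single desaturase gene, Scd2, held 32.7% to 35.2% of the fatty acid counts in the DMSO libraries and 19.16% to 19.96% in the treated ones. Without Scd2 the fatty acid sum was 46.5% of the DMSO mean, and without Scd2 and Fasn it was 51.8%.

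The TMM factors averaged 0.928 in the DMSO group and 1.08 in the P3FI-90 group, and scaling by total counts in place of TMM moved the median of all genes tested from 0.013 to 0.23. Relative to that median, the sterol branch stood at -0.78 and the fatty acid branch at -0.84 under both scalings, as it must, since scaling shifts all genes alike. As fractions of all counts of named genes, with no further scaling, the sterol enzymes took 0.0955% to 0.0977% in the DMSO libraries and 0.0656% to 0.0670% in the treated ones, and the fatty acid enzymes 0.353% to 0.361% and 0.156% to 0.160%.

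Promoter letters are shown for 6 enzymes, chosen after their values were seen: pairs that fell and rose in the sterol branch (Hmgcs1 and Idi1 against Lss) and in the fatty acid branch (Fasn and Elovl6 against Fads3). Each line gives the 200 bases before the RefSeq start of a gene, 5′ to 3′ on the gene's strand, from GRCm38.p6, whereas the submitters' processing notes name GRCm39 for the reads. Capitals mark the letters CCAAT, which the factor NF-Y binds and which read as ATTGG when on the opposite strand. They also mark TCANNCCAC, a loose form of the sterol regulatory element, on either strand.
Hmgcs1, chr13:119690151-119690350 (plus strand): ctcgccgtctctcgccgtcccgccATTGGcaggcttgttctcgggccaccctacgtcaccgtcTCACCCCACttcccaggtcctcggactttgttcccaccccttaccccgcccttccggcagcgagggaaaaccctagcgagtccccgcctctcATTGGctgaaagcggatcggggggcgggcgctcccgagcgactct
Idi1, chr13:8885406-8885605 (plus strand): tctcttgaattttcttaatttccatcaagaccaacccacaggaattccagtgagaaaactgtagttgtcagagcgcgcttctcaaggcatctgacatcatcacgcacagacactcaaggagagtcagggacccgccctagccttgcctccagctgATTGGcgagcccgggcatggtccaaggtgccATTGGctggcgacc
Lss, chr10:76531405-76531604 (plus strand): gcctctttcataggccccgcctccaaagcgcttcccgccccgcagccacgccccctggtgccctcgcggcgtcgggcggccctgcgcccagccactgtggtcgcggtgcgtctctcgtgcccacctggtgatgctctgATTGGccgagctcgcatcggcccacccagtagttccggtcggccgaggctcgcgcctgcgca
Fasn, chr11:120824548-120824747 (minus strand): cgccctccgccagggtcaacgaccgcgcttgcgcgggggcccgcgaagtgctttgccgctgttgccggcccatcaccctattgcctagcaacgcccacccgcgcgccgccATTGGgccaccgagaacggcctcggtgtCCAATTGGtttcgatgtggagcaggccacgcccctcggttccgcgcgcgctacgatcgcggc
Elovl6, chr3:129532186-129532385 (plus strand): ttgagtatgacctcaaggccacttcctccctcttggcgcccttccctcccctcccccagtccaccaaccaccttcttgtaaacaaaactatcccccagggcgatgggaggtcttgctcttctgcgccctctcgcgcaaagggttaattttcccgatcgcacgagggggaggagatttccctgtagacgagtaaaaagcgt
Fads3, chr19:10041348-10041547 (plus strand): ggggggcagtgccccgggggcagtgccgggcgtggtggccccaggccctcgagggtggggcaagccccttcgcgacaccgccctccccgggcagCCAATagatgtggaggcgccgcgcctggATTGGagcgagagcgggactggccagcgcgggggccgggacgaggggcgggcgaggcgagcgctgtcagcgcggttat

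Over these 200 bases, Hmgcs1 and Idi1 had 2 matches to CCAAT each and Lss had 1. In the fatty acid branch Fasn had 3, Elovl6 had 0 and Fads3, which rose, had 2. In Fasn, matches on both strands overlap. The match to TCANNCCAC in Hmgcs1 is also a match to the stricter TCACNCCAC, which is contained in it.

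The deepest falls of the sterol branch were in the steps up to the isoprenoids. Idi1 (ENSMUSG00000058258), which interconverts isopentenyl and dimethylallyl diphosphate, had 2426, 2928 and 2590.3 normalized counts in the DMSO libraries and 614, 662 and 746 in the P3FI-90 libraries. The treated libraries were all far below the DMSO libraries, a log2 fold change of -1.97 ± 0.081 (SE, 95% interval -2.15 to -1.80) or 3.93-fold lower. In the order of all 12288 fold changes, from the deepest fall, Idi1 stood at place 212, the second of the 38 after Scd2.

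Fdps makes farnesyl diphosphate, the branch point to sterols and to protein prenylation. It had 3572, 3512 and 3615 normalized counts in the DMSO libraries and 1247, 1162 and 1163 in the P3FI-90 libraries, with a wide gap between the groups and a log2 fold change of -1.58 ± 0.051. Hmgcs1 makes HMG-CoA, the substrate for mevalonate. Its libraries held 3507, 3883 and 3493 normalized counts in the DMSO libraries and 1431, 1233 and 1204 in the P3FI-90 libraries. They did not overlap, and the log2 fold change was -1.49 ± 0.069. Acat2, the cytosolic thiolase that joins acetyl-CoA units, had 4222, 4380.2 and 4483 normalized counts in the DMSO libraries and 1667, 1872 and 1996 in the P3FI-90 libraries and a log2 fold change of -1.24 ± 0.060. Its treated libraries also lay below all DMSO libraries.

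The mevalonate kinases had smaller falls. Mvk went from 862 ± 49.2 to 516 ± 33.8 normalized counts (SD, n = 3) and Pmvk from 838 ± 52.2 to 628 ± 27.5, with log2 fold changes of -0.74 and -0.42. Mvd, the decarboxylase that follows them, had 563, 541 and 628 normalized counts in the DMSO libraries and 459, 519.7 and 548 in the P3FI-90 libraries. Its groups overlapped, and its log2 fold change of -0.18 (95% interval -0.39 to 0.026, adjusted p = 0.0986 by edgeR's quasi-likelihood test with Benjamini-Hochberg adjustment) did not pass.

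Ggps1 went the other way. This enzyme draws farnesyl diphosphate into geranylgeranyl diphosphate, away from sterols, and had 1163, 1262 and 1141 normalized counts in the DMSO libraries and 1411, 1361 and 1349 in the P3FI-90 libraries. Every treated library was above every DMSO library, with a log2 fold change of 0.21 ± 0.059 (adjusted p = 0.00501 by edgeR's quasi-likelihood test with Benjamini-Hochberg adjustment). Of the 8 enzymes up to the isoprenoids, 6 fell, 1 rose and 1 passed in neither direction, and their median log2 fold change was -0.99. In shares, 75% fell and 12.5% rose, against 39.4% and 39.9% of all genes tested.

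Among the 11 enzymes from squalene onward, 8 fell, 2 rose and 1 passed in neither direction, with a median of -0.77. In shares, 72.7% fell and 18.2% rose, against 39.4% and 39.9% of all genes tested. Fdft1, squalene synthase, went from 2940.2 ± 69.1 to 1728 ± 76.0 normalized counts. Sqle, the squalene epoxidase and an oxygen-using control point of the branch, had 3386, 3257 and 3326 normalized counts in the DMSO libraries and 1652, 1884 and 1768 in the P3FI-90 libraries. For both enzymes the treated libraries lay below the DMSO libraries, with log2 fold changes of -0.77 ± 0.051 and -0.91 ± 0.054.

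Lss (ENSMUSG00000033105), which closes epoxidized squalene to lanosterol directly after Sqle, rose. Its promoter stretch held 1 match to CCAAT, where Idi1 held 2 and Elovl6 held 0, and both of those fell. Lss had 993, 1021 and 927 normalized counts in the DMSO libraries and 1139.7, 1303 and 1381 in the P3FI-90 libraries. The treated libraries were all above the DMSO libraries, with a log2 fold change of 0.38 ± 0.076 (adjusted p = 3.74e-04 by edgeR's quasi-likelihood test with Benjamini-Hochberg adjustment). Hsd17b7, a ketoreductase of the demethylation steps, rose as well (adjusted p = 0.00368 by edgeR's quasi-likelihood test with Benjamini-Hochberg adjustment), with 442, 491 and 422 normalized counts in the DMSO libraries and 612, 569 and 544 in the P3FI-90 libraries and a log2 fold change of 0.35 ± 0.094. Neither gene's groups overlapped.

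The remaining demethylation enzymes spread from nearly level to deep falls. Tm7sf2, a sterol reductase, and Nsdhl, a sterol dehydrogenase, went from 391 ± 16.6 to 149 ± 21.4 and from 1050.1 ± 76.1 to 438 ± 58.2 normalized counts, with log2 fold changes of -1.39 ± 0.14 and -1.26 ± 0.10. Msmo1, the methyl oxidase, had a log2 fold change of -0.30 ± 0.053. Cyp51, the lanosterol demethylase, had 1642, 1629.5 and 1639 normalized counts in the DMSO libraries and 1553, 1483 and 1443 in the P3FI-90 libraries. Its groups did not overlap, but its log2 fold change of -0.13 ± 0.051 (adjusted p = 0.0280 by edgeR's quasi-likelihood test with Benjamini-Hochberg adjustment) was past the threshold in only 7 of 14 alternative settings and turned to 0.081 under total-count scaling. Without DMSO replicate 1, DMSO replicate 3, P3FI-90 replicate 2 or P3FI-90 replicate 3 the adjusted p of Cyp51 by the same test was 0.0558, 0.0528, 0.0671 or 0.0881.

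The last steps to cholesterol also differed from each other. Ebp, the sterol isomerase, went from 1792 ± 108 to 895 ± 47.7 normalized counts and Dhcr7, the final reductase of 1 route, from 1256 ± 74.6 to 694 ± 19.3, with log2 fold changes of -1.002 ± 0.064 and -0.86 ± 0.068. Sc5d, the desaturase that acts between them, had 2290.1, 2315 and 2347 normalized counts in the DMSO libraries and 2447, 2386 and 2274 in the P3FI-90 libraries. Its groups overlapped, and the log2 fold change was 0.032 (95% interval -0.073 to 0.14).

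**Figure D3:**
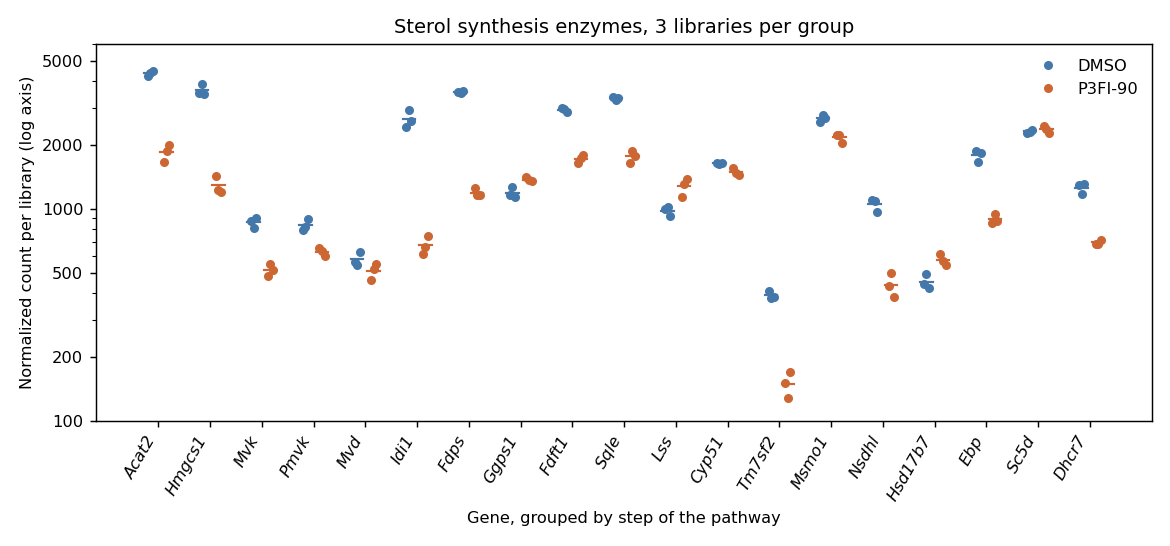
Normalized counts (log axis) of the 19 sterol synthesis enzymes, along the pathway from left to right, with 1 point per library and a short line at the mean of the 3 libraries of a group. Idi1, Fdps, Hmgcs1, Tm7sf2, Nsdhl and Acat2 show the widest gaps, while Ggps1, Lss and Hsd17b7 have the P3FI-90 points on top.

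For pairs of enzymes with different fold changes, the ratio of their counts was also taken within each library, which does not depend on scaling. The log2 ratio of Idi1 to Lss counts was 1.29, 1.52 and 1.48 in the DMSO libraries and -0.89, -0.98 and -0.89 in the treated ones, a shift of -2.35. The ratio of Fdps to Ggps1 shifted by -1.79 and that of Sqle to Lss by -1.29 on the log2 scale. In linear terms, counts of Fdps were 3.00 times those of Ggps1 with DMSO and 0.866 times with P3FI-90. These pairs, 8 in all with those of the fatty acid branch, were picked because their fold changes differed, so the separation of their ratios was fixed by the choice and is a description with no test.

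The transcripts of the fatty acid branch with the highest counts, Scd2 and Fasn, had its deepest falls. Per kilobase of exon Fasn came after Acsl5 and Acly in the DMSO libraries, at 2181 against 2578 and 2389 normalized counts. Scd2 (ENSMUSG00000025203) encodes a stearoyl-CoA desaturase, which puts the first double bond into saturated chains. It had 43949.5, 46924 and 45234 normalized counts in the DMSO libraries and 9992, 9973 and 10409 in the P3FI-90 libraries. The treated libraries were far below, 4.48-fold on average, with a log2 fold change of -2.16 ± 0.033 (95% interval -2.24 to -2.09), the deepest fall of the 38 and place 156 among all 12288 fold changes. Its level per kilobase of exon was 8303 normalized counts with DMSO and 1853 with P3FI-90, the highest of the 38 in either group.

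The supply and synthase steps fell together. Acly, which releases acetyl-CoA from citrate, had 12545, 12520.5 and 12773 normalized counts in the DMSO libraries and 5080.0, 5155 and 5140.0 in the P3FI-90 libraries. Acaca, the main cytosolic acetyl-CoA carboxylase and the committed step, had 5280.4, 5094 and 5315 normalized counts in the DMSO libraries and 1653, 1967 and 1625 in the P3FI-90 libraries. Fasn, the synthase that assembles palmitate, had 25145, 21354 and 25135 normalized counts in the DMSO libraries and 7447, 7895 and 7647 in the P3FI-90 libraries. In all 3 genes the groups were far apart, with log2 fold changes of -1.30 ± 0.032, -1.58 ± 0.063 and -1.64 ± 0.054.

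Acss2, which makes acetyl-CoA from acetate, and Mcat, the malonyl transferase of the mitochondrial pathway, fell less, with log2 fold changes of -0.65 ± 0.076 and -0.40 ± 0.072. Acacb, the carboxylase of the mitochondrial surface, whose product restrains fatty acid oxidation, had 222, 236 and 170.4 normalized counts in the DMSO libraries and 185, 191 and 209 in the P3FI-90 libraries. Its groups overlapped, and its log2 fold change of -0.10 had a 95% interval of -0.44 to 0.24, the widest of the 38, at the lowest DMSO counts of the 38. Within libraries, the log2 ratio of Acaca to Acacb went from 4.66 ± 0.27 to 3.16 ± 0.20 (SD, n = 3). Of the 6 enzymes of this step, 5 fell (83.3%, against 39.4% of all genes tested), and the median of the 6 was -0.97.

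All 5 desaturases chosen for this branch changed, 4 down and 1 up, with a median of -1.16. Of these 5, 80% fell and 20% rose, against 39.4% and 39.9% of all genes tested. Since 79.3% of all genes tested changed in either direction, a change in all 5 says little by itself. Scd3 and Scd4 were not among the chosen enzymes and are counted with the other fatty acid enzymes. Scd1, the close relative of Scd2, had 2088, 2379.8 and 2168 normalized counts in the DMSO libraries and 946, 1075 and 942 in the P3FI-90 libraries. These groups did not overlap either, and the log2 fold change was -1.16 ± 0.067. Within libraries, the log2 ratio of Scd2 to Scd1 was 4.40, 4.30 and 4.38 with DMSO and 3.40, 3.21 and 3.47 with P3FI-90, lower in every treated library.

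The Fads genes, which form a cluster on 1 chromosome, split. Fads2, the delta-6 desaturase that opens the polyunsaturated route, had 4444, 4408 and 4916 normalized counts in the DMSO libraries and 1637, 1635 and 1807 in the P3FI-90 libraries. Fads3 (ENSMUSG00000024664), a relative that acts on sphingoid bases, had 2694, 2547 and 2408 normalized counts in the DMSO libraries and 3144, 3141 and 3172 in the P3FI-90 libraries. The treated libraries were below the DMSO libraries for Fads2 and above them for Fads3, with log2 fold changes of -1.44 ± 0.057 and 0.31 ± 0.049 (adjusted p = 5.43e-05 for Fads3 by edgeR's quasi-likelihood test with Benjamini-Hochberg adjustment). Fads1, the delta-5 desaturase, fell from 2038 ± 41.8 to 1315 ± 62.5 (SD, n = 3), with a log2 fold change of -0.63 ± 0.052. Fads2 counts were 1.80 times those of Fads3 with DMSO and 0.536 times with P3FI-90.

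The elongases split too. Elovl6, which takes palmitate to stearate and has no match to CCAAT in its promoter stretch, had 3439.7, 3369.8 and 3663 normalized counts in the DMSO libraries and 1157, 1208 and 1174 in the P3FI-90 libraries. Elovl5, which extends polyunsaturated chains, had 3615, 3471 and 3461 normalized counts in the DMSO libraries and 3447, 3437 and 3740.2 in the P3FI-90 libraries. Elovl6 separated the groups fully with a log2 fold change of -1.57 ± 0.052, while the Elovl5 groups overlapped at 0.01 (95% interval -0.088 to 0.11). Elovl1, an elongase of very long saturated chains, fell by 0.83 on the log2 scale from 2074 to 1166 normalized counts. Elovl7 had 1119 and 1052, with overlapping libraries and a 95% interval of -0.28 to 0.094. The Elovl6 to Elovl5 ratio went from 0.993 to 0.333.

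Of the 4 acyl-CoA synthetases, which couple free fatty acids to CoA, 3 fell (75%, against 39.4% of all genes tested). Acsl5, the most abundant of them by count, had 12762, 12520.5 and 12337 normalized counts in the DMSO libraries and 4853, 5051 and 4869 in the P3FI-90 libraries, and Acsl3, which serves lipid droplet formation, had 3404, 3602 and 3564 normalized counts in the DMSO libraries and 1255, 1209 and 1352 in the P3FI-90 libraries. Acsl4, which prefers arachidonic acid, went from 6719.9 ± 299 to 4103 ± 89.7. None of the 3 overlapped between groups, and the log2 fold changes were -1.35 ± 0.034, -1.47 ± 0.055 and -0.71 ± 0.040. Acsl1, linked in many tissues to fatty acid use and storage, had 765, 850.3 and 831 normalized counts in the DMSO libraries and 866, 1032 and 878 in the P3FI-90 libraries. Every treated library was above every DMSO library, but the log2 fold change of 0.18 ± 0.082 had an adjusted p of 0.0531 by edgeR's quasi-likelihood test with Benjamini-Hochberg adjustment, and 8 of 14 alternative settings placed it past the threshold. Without DMSO replicate 2, P3FI-90 replicate 1 or P3FI-90 replicate 3 the adjusted p of Acsl1 by the same test was 0.0491, 0.0369 or 0.0499.

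**Figure D4:**
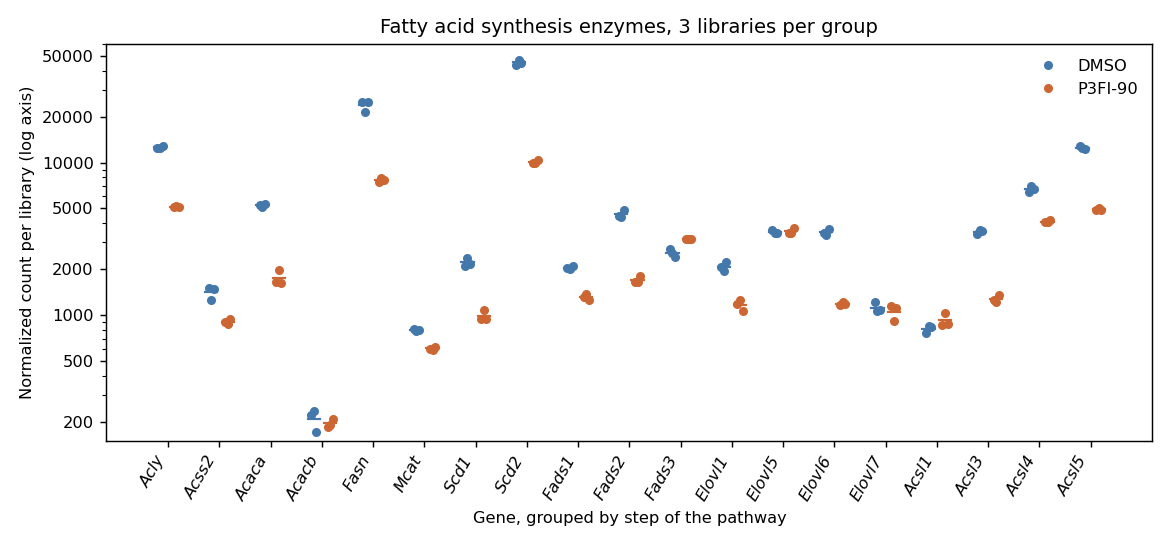
Normalized counts (log axis) of the 19 fatty acid enzymes, grouped by step, with 1 point per library and a short line at the mean of the 3 libraries of a group. Scd2 stands above all others in both groups, and Fads3 is the enzyme of this branch that rose.

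**Figure D5:**
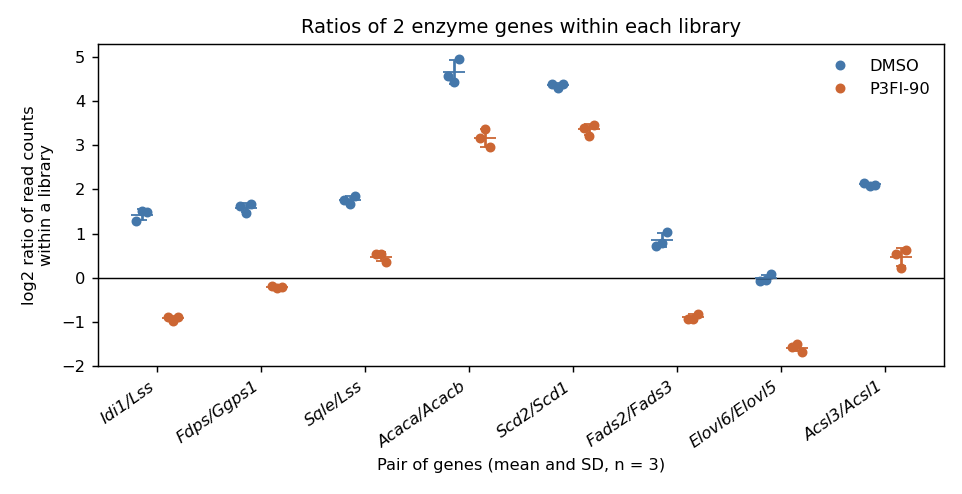
Log2 ratio of the counts of 2 enzymes within each library, for 8 pairs chosen for their different fold changes, with 1 point per library and the mean and SD of the 3 libraries of a group. The P3FI-90 points lie below the DMSO points in each of the 8 pairs, which the choice of pairs fixed.

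Higher levels with DMSO went with lower fold changes, among these enzymes and among all genes. Across the 38 enzymes, the DMSO level per kilobase and the log2 fold change had a Spearman rho of -0.57, against -0.37 across 12263 genes tested that have a length. Within the branches rho was -0.59 for the 19 sterol enzymes and -0.55 for the 19 fatty acid enzymes. These are descriptions across genes of the same 6 libraries, where genes are not independent and the DMSO libraries enter both measures. Levels per kilobase rest on the union of all annotated exons of a gene, which understates genes with long rare exons.

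The enzymes and regulators around the 38 moved in the same direction for the most part. Of 39 other pathway genes tested, out of 47 listed, 27 fell (69.2%), 4 rose and 8 passed in neither direction, against the 39.4% of all genes tested that fell and 39.9% that rose, and their median log2 fold change was -0.36. Under total-count scaling 19 of them fell and 8 rose, against 29.6% of all genes tested that fell and 50.3% that rose under that scaling. Of 8 other sterol and isoprenoid enzymes tested, 5 fell and 1 rose, and of 18 other fatty acid enzymes 13 fell and 2 rose.

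Among 13 regulators tested, 9 fell (69.2%, against 39.4% of all genes tested) and 1 rose. Srebf1, which encodes SREBP1, had 4994, 4719.9 and 5118 normalized counts in the DMSO libraries and 2088, 2266 and 2219 in the P3FI-90 libraries, and Srebf2, which encodes SREBP2, had 5629, 5277 and 5785 normalized counts in the DMSO libraries and 3639.9, 3771 and 3547 in the P3FI-90 libraries. Both fell without overlap, with log2 fold changes of -1.17 ± 0.047 and -0.61 ± 0.042. Insig1 and Insig2, which hold SREBPs in the endoplasmic reticulum when sterols are plentiful, moved apart. Insig1 had 1865, 1809 and 1886 normalized counts in the DMSO libraries and 762, 625 and 646 in the P3FI-90 libraries, a log2 fold change of -1.45 ± 0.073, whereas Insig2 rose with 2150.4, 2353 and 2385 normalized counts in the DMSO libraries and 3135, 2989 and 3259 in the P3FI-90 libraries, a log2 fold change of 0.45 ± 0.054. SREBP proteins and their cleavage were not measured.

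RefSeq promoters from 250 bases before to 50 bases after the start were at hand for 31 of the 38 enzymes, and not for Fads1, Fdft1, Fdps, Mcat, Scd1, Scd2 and Sqle. All 7 of these fell, so the shares by direction below miss only enzymes that fell and could change with them. Both strands were searched. CCAAT was present for 15 of 16 sterol enzymes (93.8%) and 10 of 15 fatty acid enzymes (66.7%), against 43.5% of the tested genes with a promoter and 37.4% of all promoters in the table. Among the 31 searched, CCAAT did not separate enzymes by direction, as 16 of 21 that fell (76.2%) and 9 of 10 that did not fall (90%) had it. TCANNCCAC was present for 1 sterol enzyme, Hmgcs1, and 4 fatty acid enzymes (26.7%), Acly, Acacb, Elovl5 and Acsl1, against 4.43% of tested genes and 4.18% of all promoters. By direction, among the 31 searched, 2 of 21 that fell (9.52%) and 3 of 10 that did not fall (30%) had it. TCACNCCAC was present for 1 in each branch, Hmgcs1 and Acsl1, against 1.36% of tested genes and 1.24% of all promoters. GGGCGG, the letters of an Sp1 site, was present for 14 sterol and 9 fatty acid enzymes, against 69.4% of tested genes, and CACGTG, an E-box, for 3 and 1, against 11.6% of tested genes. These counts describe letters and not binding.

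Some counts could be split with near-identical copies or overlapping genes. Of the 50-base stretches of exon sequence, 39.1% in Acat2 also occurred in another gene, mostly Acat3, and the sum of Acat2 and Acat3 gave a log2 ratio of -1.28. For Acaca, Fdps and Idi1 such stretches made up 30.4%, 26.2% and 17.7%, shared mostly with predicted genes of Gm names that were not used here, and for Scd1 4.56%, shared mainly with Scd3, where Scd1 and Scd3 summed gave -1.20. Exons overlapped a gene on the opposite strand over 18.3% of Fdft1, 12.1% of Hmgcs1, 9.91% of Acsl1 and 9.22% of Idi1. For Acsl5, Ggps1, Acss2 and Cyp51 the overlap was 8.31%, 5.44%, 3.89% and 3.76%, with smaller overlaps in others. Arid4b, which overlaps Ggps1, rose as Ggps1 did (log2 fold change 0.63), and so rose Akap9 (0.71), which overlaps Cyp51, and Zdhhc6 (0.23), which overlaps Acsl5, while Ctsb, which overlaps Fdft1, fell (-0.40). Gss, which overlaps Acss2, and Cdc20, which overlaps 1.94% of Elovl1, fell as well (-1.03 and -2.26). So did Tspo (-0.48), which overlaps 2.15% of Mcat. With DMSO, Ctsb had 15231.5 normalized counts against 2940 for Fdft1, Cdc20 8615 against 2074 for Elovl1, and Tspo 4808 against 798 for Mcat. Arid4b had 1644 against 1189 for Ggps1, and Akap9 2113 against 1637 for Cyp51. Lower than their enzymes were Zdhhc6, at 2776 against 12540 for Acsl5, and Gss, at 1006 against 1413 for Acss2. On the same strand, 12.1% of Tm7sf2 overlapped Vps51, which fell by 0.60 on the log2 scale and had 1424 normalized counts with DMSO against 391 for Tm7sf2. Likewise 5.6% of Acsl3 overlapped Utp14b, which fell (-1.18) and had 303 normalized counts with DMSO. Whether counting used strand is not given in the sources used here, so reads of such partners cannot be told apart.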

How the data were processed

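RNA of 6 libraries of 4T1 cells (3 DMSO, 3 P3FI-90) was sequenced by mRNA-seq. The deposited values are raw read counts per gene made by the authors. The submitters' processing notes name CASAVA, HISAT2, StringTie and GRCm39 without versions or roles, and the counter and its strand setting are not given in the sources used here. Samples were grouped by their labelled treatment. Of 22401 rows, 296 without a gene symbol (0.483% to 0.556% of counts) stayed out of library sizes and tests.

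The 38 members and all pathway and marker lists were chosen with earlier results of these data known. Every member is named, and other pathway genes are given by count, with values for Srebf1, Srebf2, Insig1 and Insig2, chosen after their values were seen. Counts were tested in R 4.3.3 with edgeR 4.0.16 (TMM, filterByExpr, quasi-likelihood test, all 6 libraries, no covariate), adjusted by Benjamini-Hochberg over 12288 genes and called at an adjusted p under 0.05. The scripts were tested on simulated data. Errors are SD over 3 libraries or SE of the fit. Branch medians per library used a pseudocount of 0.5. Alternatives were DESeq2 1.42.0, limma 3.58.1 (voom), other scalings and filters, the replicate block and leaving out each library. Within a group, libraries differed by more than counting noise, so none was a copy of another. Exon lengths and shared 50-base stretches came from GENCODE M21, which is of GRCm38, and no coordinates of its gene models are given. Promoters came from RefSeq, and the coordinates printed with the 6 promoter stretches are of GRCm38.p6.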

Additional observations from a re-analysis of the deposited data

How the results depend on the processing

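Over 14 alternatives and 38 enzymes, 504 of 532 values kept direction and side of the threshold and 10 changed sign, of which 9 belong to enzymes called in neither direction. Cyp51 reversed to 0.081 (adjusted p = 0.155, edgeR) under total-count scaling, and its call was also lost with a minimum of 10 counts, under DESeq2 and without DMSO replicate 1 or 3 or P3FI-90 replicate 2 or 3. Msmo1 lost its call under total counts (-0.085). Under total counts Mvd, Acacb and Elovl7 turned to 0.032, 0.11 and 0.12, uncalled. The upper quartile turned Sc5d to -0.0065 and Elovl5 to -0.028, and leaving out 1 library put Elovl5 between -0.035 and 0.029 and Elovl7 between -0.15 and 0.0019. Under total counts, where the median of all genes moved to 0.23, 3 fatty acid enzymes (Fads3, Acsl1 and Elovl5) and 8 other pathway genes rose, 19 other pathway genes fell in place of 27, Sc5d passed as higher as well, and the branch medians were -0.55 and -0.62. Of all genes tested, 29.6% fell and 50.3% rose under that scaling. The upper quartile put the sterol median at -0.81 and Mvd past the threshold. With DESeq2 size factors, a minimum of 10 counts in every library or the DESeq2 test, 2 fatty acid enzymes rose in place of 1, since Acsl1 was added. Leaving out 1 library gave 1 to 2 fatty acid enzymes that rose, sterol medians of -0.80 to -0.74 and fatty acid medians of -0.90 to -0.77.

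The labels number the libraries 1 to 3 in both groups, but same-numbered libraries did not deviate together (correlations of -0.021, 0.015 and 0.0049), so the numbers were not taken as pairs. With a replicate block, 2 fatty acid enzymes rose, with Acsl1 at adjusted p = 0.0441 (edgeR), the branch medians were -0.77 and -0.83, and 14 enzymes of each branch fell. With 3 libraries per group, the lowest count (Acacb) leaves the widest interval.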
